A study of Mus musculus with 7 samples.

Results

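The cells described here are endothelial cells of the mouse brain, the cells that line its blood vessels. The members were chosen by measured values in 7 single-cell libraries, their own raw counts of unique molecular identifiers (UMIs, 1 per captured RNA molecule). A cell was a member when it had at least 500 detected genes, at most 10% of its UMIs in mitochondrial genes and at least 4 UMIs of Cldn5, Flt1, Ly6c1, Pecam1 and Slco1a4 together. It also had at most 2 UMIs of the mural cell genes Kcnj8, Abcc9 and Rgs5, at most 2 of the microglial genes Cx3cr1, P2ry12 and Tmem119, and at most 2 of Aqp4, Pdgfra and Mog together. The rule found 379 members among 21002 cells that passed the gene and mitochondrial limits (1.80%). The study profiled cortex of CD1 mice at postnatal days 2, 7, 15 and 60, P60 cortical grey matter and P60 white matter of CD1 mice, and the subventricular zone (SVZ) of C57BL/6 mice at day 7, with 1 library each and no treatment or engineered allele in the labels. The whole-cortex pieces also held the ventricular zone and white matter, and the white matter pieces held the corpus callosum with the adjoining ventricular zone. The labels do not give the number or the sex of the animals in a library. The P2 cortex and the P7 SVZ libraries held 8 members each and were counted only. All gene results come from 363 members in 5 libraries of CD1 mice, of which P7 cortex and P15 cortex are called early and the P60 cortex, grey matter and white matter are called adult. The adult libraries share 1 age but not 1 dissection, and p-values measure only the spread between these libraries.

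Brain endothelial cells form the blood-brain barrier. Tight junctions seal the gaps between them, few vesicles cross them, and carriers and pumps in their membranes decide which nutrients enter and which compounds are sent back to the blood. During early postnatal life brain vessels still sprout, led by tip cells that respond to vascular endothelial growth factor and lay down new basement membrane, and Wnt signals from the brain keep the barrier programme on. Along the vessel tree, arterial, capillary and venous endothelial cells use partly different genes. Endothelial cells also present antigens on MHC class I molecules and respond to interferons, since they face the blood.

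The rule gave cells that carried its marker genes far above the threshold. Members had a lowest count of 7 UMIs of the 5 endothelial genes, 1 member lay between 4 and 7, and 22 cells just outside had 2 or 3. The other marker limits removed 23 cells. Levels below are given as CPM, the UMIs of a gene per 1000000 UMIs summed over the members of a library, and lists of 5 values are in the order P7 cortex, P15 cortex, P60 cortex, P60 grey matter and P60 white matter. The claudin gene Cldn5, the main tight junction protein of this barrier, stood at 9095, 8137, 3767, 6916 and 8450 CPM in members. Ly6c1 stood at 769, 3536, 7715, 7558 and 5487 CPM. The P7 level of Ly6c1 was the lowest and the 3 adult levels were the highest. Pecam1, an adhesion protein of endothelial contacts, varied least, from 461 to 530 CPM. Flt1, a receptor for vascular endothelial growth factor, stood at 1065, 1008, 2039, 2412 and 1800 CPM, and the organic anion transporter gene Slco1a4 at 322, 751, 1485, 1199 and 1995 CPM. These 5 genes chose the cells, so their values describe the members and were not tested.

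Genes that the rule did not use describe the members as endothelial too, although they come from the same cells. Compared with the other cells of the same library, 183 genes were at least 4-fold and 80 at least 8-fold higher in each of the 5 libraries, on a scale with 10 CPM added to both sides. The 20 genes outside the rule with the largest smallest ratio were Pglyrp1, Itm2a, Ctla2a, Egfl7, Adgrl4, Foxq1, Lsr, Bsg, Esam, Pltp, Igfbp7, Ramp2, Nostrin, Sox17, Fn1, Ptprb, Ablim1, Kank3, Cdh5 and Adgrf5. Cdh5, the cadherin that joins endothelial cells, was at 215, 226, 243, 292 and 246 CPM in members and at 0.542 CPM in other cells of P7 cortex. Bsg, a partner of monocarboxylate carriers, was the most abundant of the 20, with 14245 CPM at P7 and 26031 CPM in P60 white matter. Foxq1 and Sox17 are transcription factors of this cell type. None of these 20 genes was called in the comparison of stages below, in which 7.2% of the tested genes were called in either direction. The choice needed a high ratio in the libraries of both stages, so this count cannot show that the genes are stable.

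Most markers of other cell types were lower in the members than in the other cells, and erythroid markers were higher. The summed level of 10 mural cell markers was 4.04 to 20.2 CPM, with Pdgfrb, Ndufa4l2, Notch3 and Cspg4 at 0 in the 5 libraries. The 8 fibroblast markers summed to 9.08 CPM at P7 and to 0 in the other libraries. The 8 microglial markers summed to 175, 92.2, 255, 907 and 152 CPM, against 2635, 4537, 11675, 33658 and 6160 CPM in the other cells. The 8 oligodendrocyte markers summed to 157 to 889 CPM, against 2664 to 41221 CPM in the other cells. The 12 neuron markers summed to 170, 103, 376, 445 and 513 CPM, against 1631, 653, 1471, 107 and 1157 CPM in the other cells. The neuron sums were thus higher in the adult members than in the early ones, and in grey matter they were above those of the other cells. In the comparison of stages below, 1 of 4 tested microglial markers, 1 of 6 oligodendrocyte markers and 1 of 2 neuron markers were higher in the adult. Their part in the results was not tested. The neuron marker was Stmn2, which is also in the arterial list below and had a UMI in 12.8, 6.25, 30.3, 37.7 and 28.9% of members. The lymphatic marker Prox1 was at 0 in the 5 libraries. The 5 erythroid markers summed to 36056, 20.7, 82255, 20338 and 14.5 CPM, against 382, 18.4, 15.8, 6.68 and 0 CPM in the other cells. Haemoglobin RNA was concentrated in few members, with 5 members at P7, 2 in P60 cortex and 2 in grey matter holding over 10 haemoglobin UMIs. It made up 3.59% of member UMIs at P7, 8.20% in P60 cortex and 2.03% in grey matter. The highest share in 1 cell was 83.2% of its UMIs. Without these haemoglobin-rich members the comparison of stages below called 158 genes higher and 144 lower. No cell barcode of a member occurred in a second library.

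Endothelial cells made up 0.244% of the cells in P2 cortex, 2.08% in P7 cortex, 0.215% in P7 SVZ, 2.23% in P15 cortex, 3.18% in P60 cortex, 3.67% in P60 grey matter and 2.26% in P60 white matter. The 3 adult libraries were above the 4 early ones, although the white matter share and the P15 share lay within each other's exact binomial 95% intervals (1.65 to 3.01% and 1.72 to 2.84%). The mean was 1.19% ± 1.11 (SD, n = 4) in the early libraries and 3.04% ± 0.717 (SD, n = 3) in the adult ones. A two-sided exact permutation test gave p = 0.0571, the smallest that 4 against 3 libraries can give, and 0.229 after Benjamini-Hochberg adjustment over 4 tests of shares. Dissection and dissociation set which cells reach a library, and differences in strain and region between these libraries cannot be told apart from differences in cell share.

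**Figure D1:**
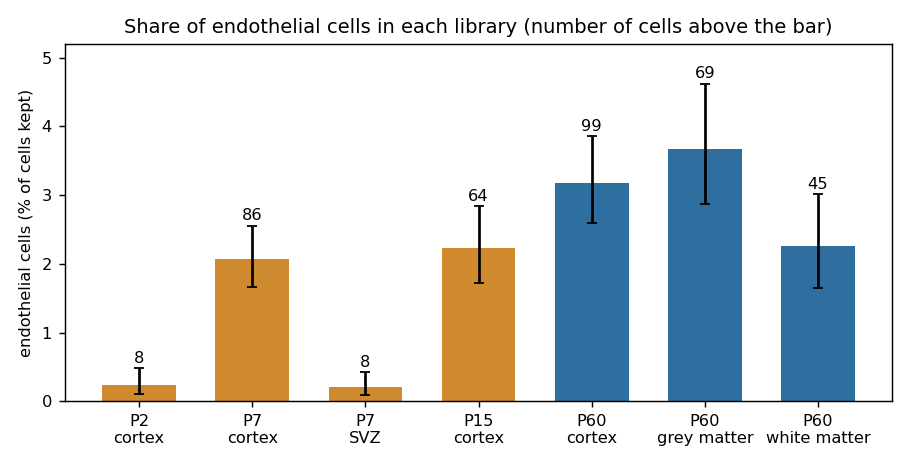
Bars show endothelial cells as a percent of all cells kept in each of the 7 libraries (orange early postnatal, blue adult), with exact binomial 95% intervals and the number of endothelial cells above each bar. P2 cortex and P7 SVZ, with 8 cells each, stand at 0.244% and 0.215%, and the adult libraries stand between 2.26% and 3.67%.

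To find which genes differ between growing and adult vessels, raw UMIs were summed over the members of each library and the 3 adult sums were compared with the 2 early ones with edgeR's quasi-likelihood test and Benjamini-Hochberg adjustment. Of 4345 genes tested, 155 were higher in the adult (3.57%) and 158 were lower (3.64%) at an adjusted p under 0.05. The median log2 difference over all tested genes was -0.01. At an unadjusted p under 0.05 there were 974 genes, and the 2 early values did not overlap the 3 adult ones for 1649 genes (38%), including all 313 that were called. In 126 of the higher and 114 of the lower genes the level in members of the higher stage was at least 2 times that of the other cells. Each library carries weight in these counts: without P15 cortex 262 genes were higher and 215 lower, and without P7 cortex, P60 cortex, grey matter or white matter the counts were 66 and 56, 54 and 24, 66 and 66, and 48 and 31.

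Several features moved with stage and their part in the results was not tested. Early sums held 991272 and 531618 UMIs, and adult sums 247170, 222682 and 138336. Early members had a median depth of 10138 UMIs at P7 and 7523 at P15, and adult members one of 2023, 3005 and 2628. Among other cells it was 6857 and 5598 UMIs, then 2835, 6286 and 4512. Thinning all sums to 138336 UMIs left 103 genes higher and 79 lower. The Y-linked gene Eif2s3y was at 32.3 and 35.7 CPM in the early libraries and at 0 in all 3 adult ones, and Xist was at 653 and 818 CPM early and at 1262, 1073 and 1243 CPM in the adult. The sex of the animals and their age therefore cannot be told apart for any gene. Genes named below that lie on the X chromosome include at least Apln, Bgn and Bmx. A list of 28 genes that tissue dissociation is known to induce, such as Fosb and Hspa1a, summed to 10421, 8897, 14638, 50062 and 27419 CPM. Of its 27 tested genes 7 were higher in the adult, with a list median of 1.56 on the log2 scale. The number called was 2 without P7 cortex, 4 without P15 cortex or P60 cortex, 2 without grey matter and 1 without white matter. The median was 0.75 without grey matter and between 1.63 and 1.97 in the other 4 fits.

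Genes of antigen presentation and the interferon response were the group with the most members that rose. Of 34 genes in this list 26 were tested, 17 were higher in the adult, none was lower, and the list median was 2.56 on the log2 scale. The summed level of the list was 2287, 5391, 12384, 20312 and 12715 CPM. Psmb8, a subunit of the immunoproteasome that cuts proteins into peptides for MHC class I, was at 10.1, 18.8, 190, 202 and 195 CPM. The 3 adult values were nearly equal, and both early values were far below them. Psmb8 rose by 3.83 ± 0.388 (SE) on the log2 scale (adjusted p = 0.00123, edgeR's quasi-likelihood test). Its partner Psmb9 was at 13.1, 20.7, 93.1, 103 and 123 CPM and rose by 2.69 ± 0.388 (adjusted p = 0.00651 in the same test). B2m, the invariant chain of MHC class I, was at 473, 760, 2201, 4756 and 1836 CPM, with grey matter highest. B2m rose by 2.31 ± 0.493 (adjusted p = 0.0266, edgeR), a call that ended without P7 cortex (adjusted p = 0.112) and without P60 cortex (0.0722). Among other cells the mean B2m level was 317 CPM in the early libraries and 1533 CPM in the adult ones. Heavy chain genes did not all pass: H2-Q4 (17.1, 35.7, 101, 202 and 173 CPM) and H2-T23 (21.2, 50.8, 97.1, 287 and 253 CPM) did, whereas H2-D1, at 513, 792, 1109, 2425 and 1345 CPM, had an adjusted p of 0.0823 in edgeR's test. Reads of the H2 genes can be shared among near-identical copies, so their separate levels are uncertain. Tap2, which carries peptides into the endoplasmic reticulum, rose from 26.2 and 20.7 CPM to 48.5, 112 and 116 CPM.

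The same list holds genes that interferons induce. Ifit1, which binds foreign RNA, was at 1.01 and 5.64 CPM in the early libraries and at 121, 53.9 and 108 CPM in the adult ones, and rose by 4.98 ± 0.672 (adjusted p = 0.00476, edgeR's quasi-likelihood test). Isg15, a ubiquitin-like protein, was at 21.2, 37.6, 223, 171 and 267 CPM, and rose by 2.95 ± 0.369. Irf7, a transcription factor that amplifies interferon signals, was at 12.1, 22.6, 121, 126 and 94.0 CPM. In these genes no adult library came near an early one. Ifitm3, a membrane protein that hinders virus entry, was at 99.9, 378, 1695, 1724 and 1598 CPM (log2 difference 2.86 ± 0.515, adjusted p = 0.0143, edgeR). Ifitm2 and Gbp3 were also called, and Gbp2, a guanylate-binding protein of the defence against intracellular microbes, went from 4.04 and 13.2 CPM to 60.7, 166 and 86.7 CPM. The Ifitm and Gbp genes belong to families with close copies. Irf1, a further transcription factor of the pathway, stood at 3.03, 18.8, 44.5, 117 and 86.7 CPM. Its call (adjusted p = 0.0320, edgeR) ended when any library but P15 cortex was left out, with adjusted p between 0.0683 and 0.119. Stat2, which relays the interferon signal, had an adjusted p of 0.0601. The surface protein gene Ly6a was at 112, 918, 2784, 4046 and 2624 CPM with an adjusted p of 0.0601. Over the whole list the number called higher was 10 without P7 cortex, 19 without P15 cortex, 12 without P60 cortex, 13 without grey matter and 11 without white matter, and none was lower in any of these fits. Grey matter, where the dissociation genes were highest, also had the highest adult level for 16 of the 26 tested genes, against 6 for P60 cortex and 4 for white matter. Ifit1 and Isg15 were lowest there among the adult libraries. The part of dissociation in these levels was not tested.

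The promoters of these genes can be read for the sequence that interferon-activated factors bind. Promoter windows of 250 bases before the start of transcription were taken from RefSeq (build GRCm38.p6) for 14 of the 17 called genes, which had 16 windows. The motif TTTCNNTTTC, searched on both strands and chosen after the gene results were seen, occurred in 7 of the 16 (43.8%) and in 2.98% of all 32851 windows. The last 150 bases before the start are shown for 4 of the genes, 5′ to 3′ on the strand of the gene, with the motif in capitals. A copy on the opposite strand is shown as its reverse complement.
Ifit1 (chr19:34640739-34640888, plus strand): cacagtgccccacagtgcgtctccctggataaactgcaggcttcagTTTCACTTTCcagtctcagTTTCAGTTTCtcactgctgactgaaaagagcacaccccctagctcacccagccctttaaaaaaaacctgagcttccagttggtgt
Isg15 (chr4:156200819-156200968, minus strand): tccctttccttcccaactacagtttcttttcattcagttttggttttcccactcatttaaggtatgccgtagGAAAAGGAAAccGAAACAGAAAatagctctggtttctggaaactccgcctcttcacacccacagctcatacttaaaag
Gbp2 (chr3:142620513-142620662, plus strand): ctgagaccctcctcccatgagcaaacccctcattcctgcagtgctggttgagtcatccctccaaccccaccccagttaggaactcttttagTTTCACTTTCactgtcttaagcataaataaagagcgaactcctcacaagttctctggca
B2m (chr2:122147537-122147686, plus strand): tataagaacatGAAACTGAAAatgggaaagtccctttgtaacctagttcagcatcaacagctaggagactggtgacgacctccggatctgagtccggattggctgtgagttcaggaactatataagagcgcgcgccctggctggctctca
Ifit1 and Isg15 held 2 copies each in these windows. In Gbp2 the copy began 59 bases before the start and in B2m it lay 139 bases before it. The other 3 windows with the motif belonged to Gbp3, H2-T23 and Ifitm2. A match is a stretch of letters and shows no binding in these cells. The list was made up of genes of antigen presentation and the interferon response, so the share of the motif does not speak to the rise with stage. Uncalled genes of the list were not compared. The core CCGGAA of ETS factors occurred in none of the 16 windows and in 12% of all windows, and TATAAA in 6 of the 16 (37.5%) and in 12.4% of all. CACCC, the core of Klf factors, occurred in 68.8% and 52.0%. Of the 15 genes with the largest rise and the 15 with the largest fall, given below, 12 of each had windows. CACCC was in 87.5% of the 16 windows of the rises and in 70.0% of the 20 windows of the falls. TTTCNNTTTC was in 2 windows of the rises (12.5%), among them that of Ifit1, and in 0 of the falls. Several windows of the falls belonged to Slc29a1 alone, so these are shares of windows and not of genes.

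The single genes with the largest rises were mostly low or at the limit of detection in early vessels. Xdh, which encodes xanthine dehydrogenase, an enzyme of purine breakdown, had 1 UMI in the 150 early members and 64 UMIs in the 213 adult members. Its adult levels were 105, 108 and 101 CPM, and the pooled ratio was 160 with a counting interval (95%, exact) of 27.8 to 6427. Slc26a10, of the anion exchanger family, had 2 early UMIs and 88 adult ones, a pooled ratio of 110 (29.6 to 924). Pla2g4a, a phospholipase that releases arachidonic acid, had 2 and 30 UMIs, a ratio of 37.6 (9.53 to 324). These intervals cover counting error only. Alpl, the tissue-nonspecific alkaline phosphatase long used to stain brain vessels, was at 1.01, 5.64, 154, 278 and 137 CPM. Alpl rose by 6.03 ± 0.666 on the log2 scale (adjusted p = 0.00241, edgeR's quasi-likelihood test). Itih5, a hyaluronan-binding protein, was at 7.06, 32.0, 320, 498 and 448 CPM and rose by 4.58 ± 0.561. Tinagl1, a basement membrane protein, was at 15.1, 35.7, 320, 530 and 361 CPM and rose by 4.09 ± 0.464 (adjusted p = 0.00270, edgeR). Ephx1, an epoxide hydrolase that detoxifies reactive compounds, went from 2.02 and 3.76 CPM to 48.5, 67.4 and 116 CPM. Eps8l2, an actin regulator, and Rad54b, a DNA repair helicase, rose by 4.46 ± 0.643 and 4.33 ± 0.590. The remaining genes of the 15 were Ifit1 and 5 genes at low early levels, Gm9946, Plscr2, Ifi203, Plscr1 and AW112010. Of these, Gm9946, Plscr2, Plscr1 and AW112010 missed the threshold without 1 or more of the libraries, with the highest adjusted p of 0.0727 for Plscr2 without white matter, and Ifi203 varied from 14.5 CPM in white matter to 117 CPM in P60 cortex. The calls of Xdh, Slc26a10, Alpl, Pla2g4a, Ephx1, Itih5, Eps8l2, Rad54b and Tinagl1 held in every alternative fit in which the gene was tested.

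**Figure D2:**
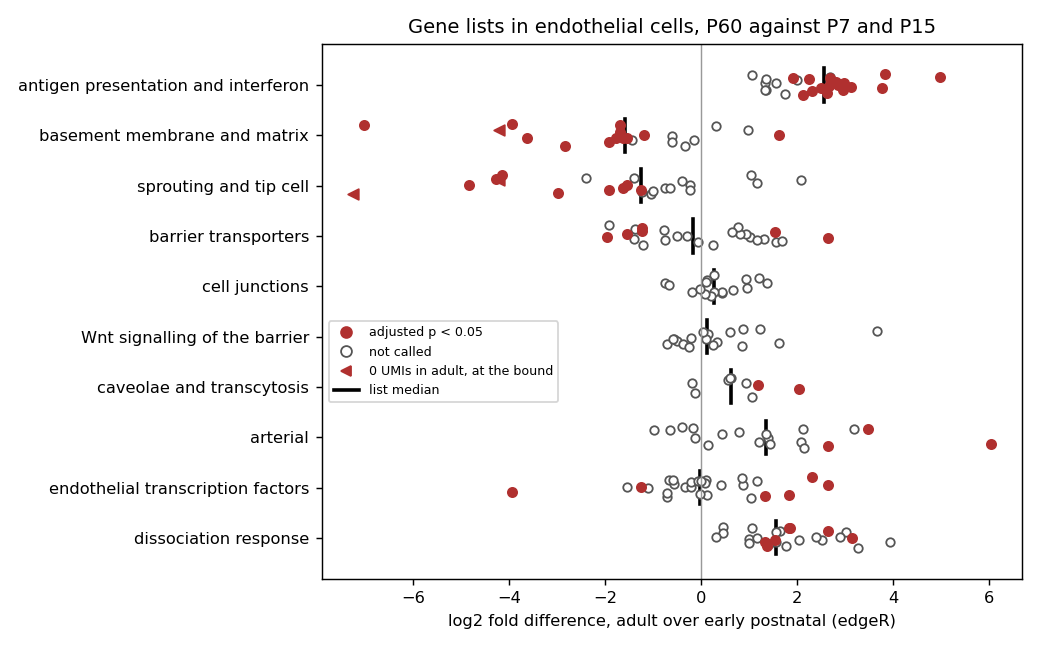
Each point is a tested gene of a list, placed at its log2 difference of adult over early (edgeR); red points were called at an adjusted p under 0.05, triangles mark genes with 0 adult UMIs at their bound, and the black line is the list median. The antigen presentation and interferon genes lie to the right of 0, most matrix and sprouting genes lie to the left, and no gene of the junction or Wnt lists was called.

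Basement membrane genes moved in the other direction. Of 26 genes of this list 20 were tested, 12 were lower in the adult and 1 was higher, with a list median of -1.59, also with Lamb1 at its bound. Nid1, nidogen 1, which links laminin to collagen IV, was at 183, 156, 8.09, 18.0 and 14.5 CPM. The 3 adult values were far below the 2 early ones, and Nid1 fell by 3.62 ± 0.414 on the log2 scale (adjusted p = 0.00270, edgeR's quasi-likelihood test). Nid2, its close relative, was at 190, 67.7, 8.09, 8.98 and 7.23 CPM and fell by 3.93 ± 0.644, a call that ended without P7 cortex (adjusted p = 0.108), P60 cortex (0.0705) or white matter (0.0618). The collagen IV chains form the network of the membrane. Col4a1 was at 454, 730, 223, 207 and 116 CPM and Col4a2 at 422, 645, 162, 117 and 130 CPM, and in both chains P15 was above P7 and all adult values were below P7. Col4a2 fell by 1.93 ± 0.308 and Col4a1 by 1.63 ± 0.366. The laminin chain gene Lamb1 was at 112 and 50.8 CPM early and had 0 UMIs in all 3 adult libraries. Against a floor of 3 counts over the adult group (4.93 CPM), Lamb1 was at least 18.4-fold lower (adjusted p = 0.0136, edgeR), and its call ended without P7 cortex (0.124), P60 cortex (0.0679) or white matter (0.0544). Lama4, the laminin chain of vessels, was at 137, 139, 0, 18.0 and 50.6 CPM.

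Further genes of the list build or modify matrix. Bgn, the proteoglycan biglycan, had 454 UMIs in early members and 1 UMI in adult ones, and its levels of 413 CPM at P7 and 84.6 CPM at P15 differed too. The pooled ratio was 181 with a counting interval of 32.4 to 7177, and the call ended without P60 cortex (adjusted p = 0.0683) or white matter (0.0569). Sparc, which binds collagen and regulates its assembly, was among the most abundant messages of the members, at 7533, 7150, 1703, 2861 and 2928 CPM. Sparc fell by 1.55 ± 0.301 (adjusted p = 0.0187, edgeR's quasi-likelihood test), with adjusted p of 0.0804, 0.0627 and 0.0657 without P7 cortex, P60 cortex and white matter. Serpinh1, the collagen chaperone of the endoplasmic reticulum, was at 1226, 822, 202, 355 and 340 CPM. Hspg2 (perlecan), Agrn (agrin) and the collagen-modifying enzyme gene Plod1 were also lower. Not every matrix gene differed: Sparcl1, a relative of Sparc, was at 1623, 1435, 1117, 1473 and 1504 CPM (adjusted p = 0.8), and Fn1, fibronectin, had an adjusted p of 0.414. Itga6, the laminin receptor subunit, was the 1 gene of the list that rose, from 42.4 and 52.7 CPM to 121, 189 and 116 CPM (log2 difference 1.63 ± 0.368). The number of matrix genes called lower was 6 without P7 cortex, 10 without P15 cortex, 2 without P60 cortex, 7 without grey matter and 1 without white matter, while the list median stayed between -1.44 and -1.72 in these fits. With sums thinned to equal depth 5 were called lower.

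Genes of sprouting and of tip cells, the leading cells of a new branch, also fell. Of 28 genes 23 were tested, 10 were lower and none was higher, with a median of -1.24, also with the genes of 0 adult UMIs at their bounds. Apln, the peptide apelin that tip cells secrete, was at 760 and 715 CPM in the early libraries and had 0 UMIs in 213 adult members. Its 1133 early UMIs set it at least 151-fold above the adult floor (adjusted p = 0.00123, edgeR's quasi-likelihood test), and the call held in every alternative. Among other cells the mean Apln level was 19.4 CPM early and 28.0 CPM in the adult. The receptor gene Aplnr was at 440, 160, 16.2, 31.4 and 79.5 CPM and fell by 2.98 ± 0.583 (adjusted p = 0.0190, edgeR). Angpt2, a ligand that loosens the vessel wall during sprouting, was at 163, 102, 8.09, 8.98 and 0 CPM and fell by 4.27 ± 0.591. Trp53i11, a gene known from tip cell profiles, was at 313, 288, 8.09, 4.49 and 21.7 CPM and fell by 4.84 ± 0.442 (adjusted p = 0.00123, edgeR). In Angpt2 and Trp53i11 every adult library was far below both early ones. Mcam, an adhesion protein, had 102 early UMIs and 2 adult ones. Col4a1, Col4a2, Lamb1 and Sparc belong to this list and to the matrix list, and Ets1 is the tenth gene that was lower. Receptors for vascular endothelial growth factor were not called. Kdr, the main one, was at 526, 602, 130, 404 and 296 CPM (adjusted p = 0.184), and Flt4 and the co-receptor gene Nrp1 had adjusted p of 0.816 and 0.0955. Dll4, the Notch ligand of tip cells that arterial cells also use, was at 180, 86.5, 52.6, 157 and 94.0 CPM (adjusted p = 0.694). Leaving out 1 library at a time, 6 genes were called lower without P7, 11 without P15, 4 without P60 cortex, 7 without grey matter and 3 without white matter, and 2 were called higher without P15.

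Other genes with large falls belonged to no list. Chst1, a sulfotransferase of keratan sulfate, was at 208, 177, 8.09, 4.49 and 7.23 CPM and fell by 4.78 ± 0.438 (adjusted p = 0.00123, edgeR's quasi-likelihood test). Htra3, a secreted serine protease, was at 506, 290, 12.1, 22.5 and 21.7 CPM and fell by 4.41 ± 0.427 (same adjusted p). The calls of both genes held in every alternative. Neither gene overlapped between the stages, which the rule that named them required and which holds for all 313 called genes. Igfbp4, a binding protein of insulin-like growth factors, was at 616, 196, 0, 44.9 and 0 CPM, and its call was lost with DESeq2 (adjusted p = 0.362). Fgfbp1, which releases fibroblast growth factors from the matrix, had 204 early and 3 adult UMIs, a ratio of 27.2 (9.16 to 133), and was also lost with DESeq2 (0.150). Slc29a1, an equilibrative nucleoside transporter, had 223 and 3 UMIs, a ratio of 29.7 (10.0 to 145). Madcam1, an adhesion molecule for lymphocytes, and Cchcr1 had no adult UMIs and were at least 11.8-fold and at least 11.3-fold lower. Pcdh12, a protocadherin of endothelial contacts, had 102 early UMIs and 1 adult UMI, Ctsw 158 and 2, and Adamtsl2 121 and 2. Without P7 cortex the adjusted p of Slc29a1, Madcam1, Cchcr1, Pcdh12, Ctsw and Adamtsl2 ran from 0.103 to 0.34, and without P60 cortex those of these genes with Igfbp4 and Fgfbp1 ran from 0.0533 to 0.0915. Without white matter the calls of Slc29a1, Ctsw, Adamtsl2 and Igfbp4 ended (0.0547 to 0.0901), and that of Ctsw ended without grey matter as well (0.0657).

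**Figure D3:**
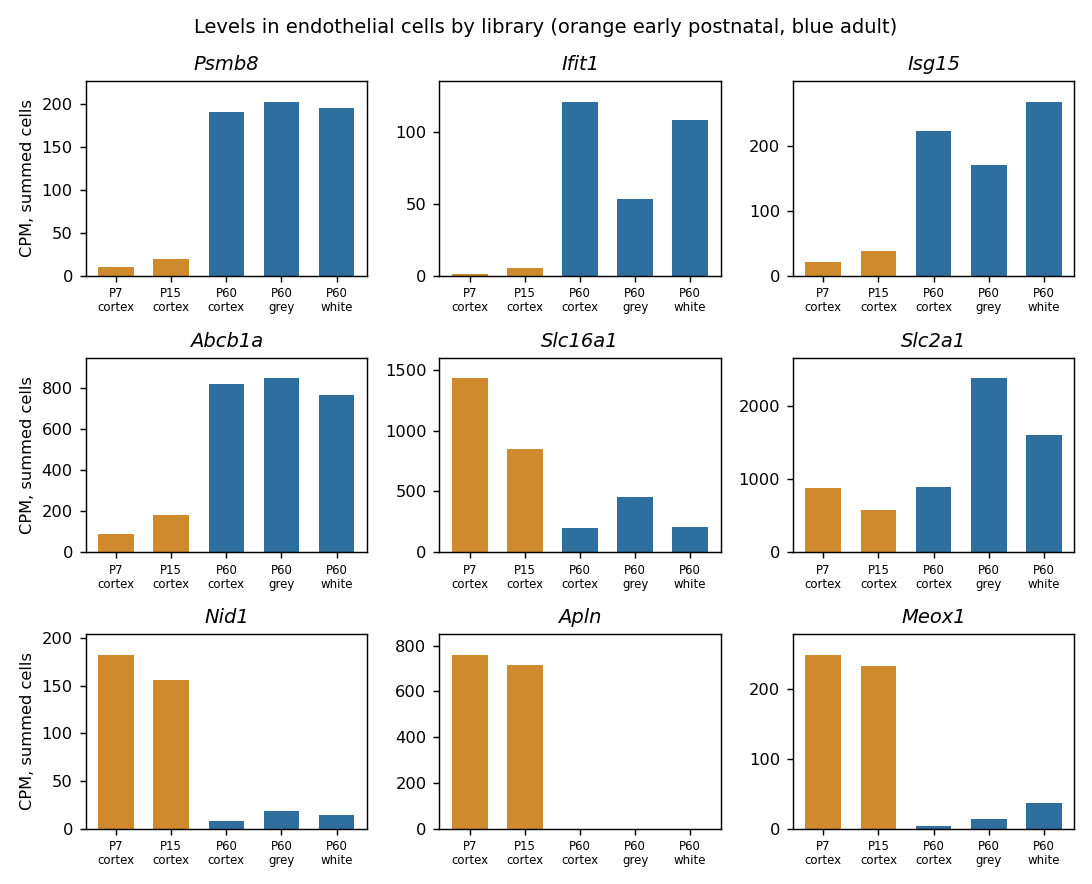
Bars give the CPM of 9 genes in the summed endothelial cells of each library, with orange for P7 and P15 cortex and blue for the P60 libraries; each panel has its own linear axis from 0. Psmb8, Ifit1, Isg15 and Abcb1a stand higher in the 3 adult libraries, and Slc16a1, Nid1, Apln and Meox1 stand lower. Slc2a1 is nearly level in P7 cortex (879 CPM) and P60 cortex (890 CPM), lower in P15 cortex and higher in grey and white matter.

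Carriers and pumps of the barrier split into both directions. Of 30 genes 26 were tested, 2 were higher, 4 were lower and the median was -0.18. Abcb1a, the P-glycoprotein that pumps drugs back to the blood, was at 87.8, 182, 821, 849 and 766 CPM. Abcb1a rose by 2.64 ± 0.373 (adjusted p = 0.00587, edgeR's quasi-likelihood test) and its call held in every alternative. Abcg2, a second efflux pump, was at 280, 194, 672, 575 and 824 CPM and rose by 1.54 ± 0.306 (adjusted p = 0.0196, edgeR). The Abcg2 call ended without P15 cortex (0.0985), P60 cortex (0.0683) or white matter (0.0736). As in all genes called higher, the pumps were above both early libraries in each adult library. Slc16a1, the carrier of lactate and ketone bodies, went the other way, at 1430, 850, 198, 454 and 210 CPM. Slc16a1 fell by 1.95 ± 0.431 (adjusted p = 0.0294, edgeR), and its call ended without P7 cortex (0.119), P60 cortex (0.129) or white matter (0.121). Slc7a5, the carrier of large neutral amino acids, was at 1821, 1004, 506, 341 and 614 CPM and fell by 1.54 ± 0.343. Its adjusted p was 0.275 without P7 cortex and between 0.0909 and 0.0972 without any 1 of the adult libraries. The Slc7a5 call also ended in sums thinned to equal depth. Slc38a3, a glutamine carrier, and Slco2b1, an organic anion transporter, were the other genes called lower.

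Other defining carriers were not called. Slc2a1, the glucose transporter GLUT1, was at 879, 576, 890, 2371 and 1605 CPM (log2 difference 1.17 ± 0.432, adjusted p = 0.142, edgeR's quasi-likelihood test). The P60 cortex value of Slc2a1 was close to that of P7, and grey and white matter were higher. Mfsd2a, the lipid carrier that holds down vesicle transport across the barrier, was at 1273, 442, 93.1, 521 and 376 CPM (-1.38 ± 0.626, adjusted p = 0.233). P7 cortex had the highest Mfsd2a level and P60 cortex the lowest, and the stages overlapped. Tfrc, the transferrin receptor, was at 327, 273, 68.8, 171 and 152 CPM (adjusted p = 0.0854). Slc38a5, an amino acid carrier of venous endothelium, was at 1270, 209, 60.7, 202 and 361 CPM (adjusted p = 0.161). Without P7 cortex no transporter was called lower, nor without P60 cortex or white matter, and 1 was without grey matter. Without P15 cortex 8 were called lower and 4 higher.

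Genes of the junctions and of the Wnt pathway were called in neither direction. Of 22 junction genes 17 were tested, with a median of 0.27. Cdh5 (values above) had a log2 difference of 0.27 ± 0.273 and an adjusted p of 0.622 in edgeR's quasi-likelihood test. Ocln, occludin, was at 146, 126, 158, 274 and 369 CPM (adjusted p = 0.141), and Lsr, the tricellular junction receptor, was at 423, 395, 320, 629 and 434 CPM. Of 24 Wnt pathway genes 18 were tested, with a median of 0.13. Lef1, the transcription factor that Wnt signals use in these cells, was at 137, 194, 336, 247 and 296 CPM (adjusted p = 0.120), and Fzd4, the receptor for norrin, was at 47.4, 54.6, 97.1, 31.4 and 57.8 CPM. The Wnt target gene Apcdd1 was too low to test. A difference of 2-fold would rarely be called in this comparison, since data simulated with 2-fold changes in 200 genes gave 2% of them back, against 82% at 4-fold.

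Of 12 genes of caveolae and transcytosis, the vesicle route across the cell, 9 were tested and 2 were higher. Cavin2, a coat protein of caveolae, was at 120, 124, 336, 579 and 593 CPM and rose by 2.05 ± 0.334 (adjusted p = 0.01, edgeR's quasi-likelihood test; 0.0520 without white matter). Cav2 rose by 1.19 ± 0.300 with an adjusted p of 0.0454, and that call ended in 9 of 14 alternatives, among them each omission of 1 library (0.0683 to 0.344). Cav1, the main caveolin, was at 234, 365, 206, 242 and 376 CPM (adjusted p = 0.866). Plvap, the marker of leaky fenestrated vessels, had 2.02 CPM at P7 and 0 in the other 4 libraries. Of 30 genes shared by endothelial cells in general, 29 were tested, Tek and Tinagl1 were higher and Ecscr and Cd93 were lower, with a median of 0.09. Ecscr, a surface protein of endothelial migration, was at 441, 500, 52.6, 94.3 and 101 CPM and fell by 2.51 ± 0.319 (adjusted p = 0.00343, edgeR). Tek, the angiopoietin receptor Tie2, was at 97.9, 150, 316, 314 and 311 CPM and rose by 1.38 ± 0.298. Angpt2, the gene of its context-dependent ligand, was lower in the same libraries. The Tek call ended when any library but P15 cortex was left out, with adjusted p from 0.0732 to 0.287, and that of Cd93 when any of the 5 was left out, from 0.0702 to 0.201.

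Among 32 transcription factor genes 27 were tested, 4 were higher and 2 were lower, and the median was -0.02. Meox1, a homeobox gene, was at 249, 233, 4.05, 13.5 and 36.1 CPM and fell by 3.93 ± 0.5 (adjusted p = 0.00343, edgeR's quasi-likelihood test). The Meox1 call held in every alternative. Ets1, a factor of endothelial growth, was at 443, 356, 134, 148 and 231 CPM and fell by 1.24 ± 0.296. Klf2, which blood flow induces, was at 926, 1810, 3754, 5313 and 5234 CPM and rose by 1.83 ± 0.359 (adjusted p = 0.0190, edgeR). Klf4, its relative, was at 237, 333, 773, 3417 and 904 CPM, and grey matter was far above the rest. Klf2, Klf4 and Klf6 are in the dissociation list as well, whose summed level was highest in grey matter. Without grey matter the adjusted p of Klf2 was 0.0616. The call of Klf2 also ended without P7 cortex (0.173), P60 cortex (0.0562) or white matter (0.0679), and that of Klf4 without P7 cortex (0.132), P60 cortex (0.0730) or white matter (0.0719). Tcf15, a factor of endothelial identity, went from 11.1 and 24.5 CPM to 64.7, 85.3 and 101 CPM, and its call ended without any library other than P15 cortex (adjusted p from 0.0661 to 0.133). Fli1, Sox17, Sox18, Foxf2 and Foxq1, which help to define the brain endothelial state, were not called.

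The lists of TGF-beta and BMP signalling, lipid handling and leukocyte adhesion held 1 or 2 calls each. Among all tested genes 7.2% were called, and lists this short cannot be set apart from that share. Of 14 tested genes of TGF-beta and BMP signalling, Acvrl1, the BMP9 receptor ALK1, was higher (207, 166, 307, 566 and 535 CPM) and Bambi, a decoy receptor, was lower (360, 160, 60.7, 103 and 86.7 CPM). The call of Acvrl1 ended when any of the 5 libraries was left out (adjusted p from 0.0562 to 0.165), and that of Bambi when any but P15 cortex was (0.0857 to 0.428). Id1, a target of BMP signals, was at 226 CPM at P7 and between 1230 and 2051 CPM in the other 4 libraries, and the stages overlapped. Of 10 tested genes of lipid handling, Acer2, a ceramidase, was higher (6.05, 56.4, 190, 202 and 145 CPM), a call that ended without any library but P15 cortex (0.0768 to 0.16). Pltp, the phospholipid transfer protein, was at 1172, 1112, 1319, 3718 and 3072 CPM (adjusted p = 0.110, edgeR). Of 5 tested genes of leukocyte adhesion and inflammation, Nfkbia, the inhibitor of NF-kappa-B, was higher (511, 641, 1262, 1733 and 1388 CPM), a call that ended without any 1 of the 5 libraries (adjusted p from 0.0622 to 0.262). Of the heat shock and early response genes, Hspb1 rose by 3.14 ± 0.558 (317, 527, 1897, 6130 and 2754 CPM) and was called in every alternative.

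Vessel zones were read from sets of marker genes, 9 arterial (such as Bmx, Gkn3 and Dll4) and 8 venous (such as Slc38a5, Vwf and Nr2f2), after each cell was thinned to 1000 UMIs. A UMI of the arterial set was seen in 32.6% and 31.3% of early members and in 44.8%, 47.1% and 36.4% of adult members. In 500 other cells drawn at random from each library, less those too shallow to thin, the share was 10.8, 8.45, 3.89, 3.23 and 3.85%. The adult shares lay above the early ones, by 10.8 percentage points on average (two-sided exact permutation p = 0.200, the smallest that 2 against 3 libraries allow). Without thinning the shares were 90.7, 71.9, 54.5, 69.6 and 55.6%, so the share of members with an arterial UMI then differed in the opposite direction (by -21.4 percentage points). A UMI of the venous set was seen in 70.9, 31.3, 12.5, 26.5 and 20.5% of members and in 18.4, 10.1, 5.93, 5.44 and 1.42% of other cells, a difference of -31.3 percentage points (exact permutation p = 0.200). Without thinning the venous shares were 98.8, 79.7, 28.3, 53.6 and 44.4%. Slc38a5 had the highest level of the venous set at P7, 1270 CPM, against 134 CPM for Vwf and 12.1 CPM for Nr2f2. Shallower members were left out of thinning, 3 in P60 cortex and 1 each in grey and white matter.

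Of the 24 genes of the arterial list 19 were tested, Alpl, Bmx and Stmn2 were higher and none was lower, and the median was 1.35. Bmx, a kinase gene of arterial endothelium, was at 2.02, 11.3, 68.8, 49.4 and 79.5 CPM and rose by 3.48 ± 0.675 (adjusted p = 0.0187, edgeR's quasi-likelihood test). Its call ended without P7 cortex (0.0669), P60 cortex (0.0722) or white matter (0.0657). Gkn3, a secreted arterial marker of the brain, was at 1.01, 64.0, 295, 323 and 123 CPM (adjusted p = 0.0847), and Tm4sf1, at 80.7, 517, 882, 1572 and 1308 CPM, had 0.0860. The number of arterial genes called higher was 2 without P7 cortex, 11 without P15 cortex, 1 without P60 cortex, 3 without grey matter and 2 without white matter. Without P7 cortex 1 arterial gene was called lower and the list median was 0.77. Hey1, a Notch target, was at 95.8, 134, 134, 108 and 130 CPM (adjusted p = 0.835). Stmn2, whose call ended without P60 cortex (0.0562), is also a neuron marker, at 313 CPM in other cells of P7 cortex. Of 9 tested venous genes 1 was higher and none was lower. Of 14 tested capillary genes Slc16a1 and Slc7a5, given above, were lower.

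Cells with an arterial UMI alone and cells with a venous UMI alone also differed in genes that neither set used, given here as a description. They are called arterial cells and venous cells below, names that stand for these UMIs only. Before thinning, Slc38a5 of the venous set had a UMI in 96.5% of all P7 members. Mean levels over the 5 libraries were 246 CPM and 13.6 CPM for Mgp, an inhibitor of calcification in arteries, and 167 and 1.54 CPM for the elastic fibre gene Fbln2. Tm4sf1 was at 1350 and 531 CPM and was higher in arterial cells of all 5 libraries. Alpl was at 198 CPM in arterial cells, 13.2 CPM in venous cells and 88.6 CPM in cells with neither. The means of all 15 other arterial genes were higher in the arterial cells. For Hey2 and Cytl1 this rested on 1 and 2 UMIs against 0. Edn1 (361 and 346 CPM) was higher in the arterial cells of only 2 libraries. The share of all genes with a higher mean there was not computed. Of 15 capillary genes 4 had a higher mean there and 11 a lower one, and of 12 venous genes outside the set 2 had a higher mean, 7 a lower one and 3 no UMI in either group. Cxcl12, a chemokine gene of the capillary list, was higher in the arterial cells of all 5 libraries (1393 and 671 CPM). Car4, the carbonic anhydrase of capillaries, was at 528 and 1460 CPM, Icam1, an adhesion molecule for leukocytes, at 59.2 and 308 CPM, and Pglyrp1 at 1107 and 2105 CPM. Car4 and Pglyrp1 were lower in the arterial cells of all 5 libraries, and Icam1 in 4, with no UMI in either group of P60 cortex. The groups held between 7 cells (venous, P60 cortex) and 43 cells (venous, P7 cortex), and cells with neither made up 17.4, 43.8, 47.9, 36.8 and 43.2% of members.

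**Figure D4:**
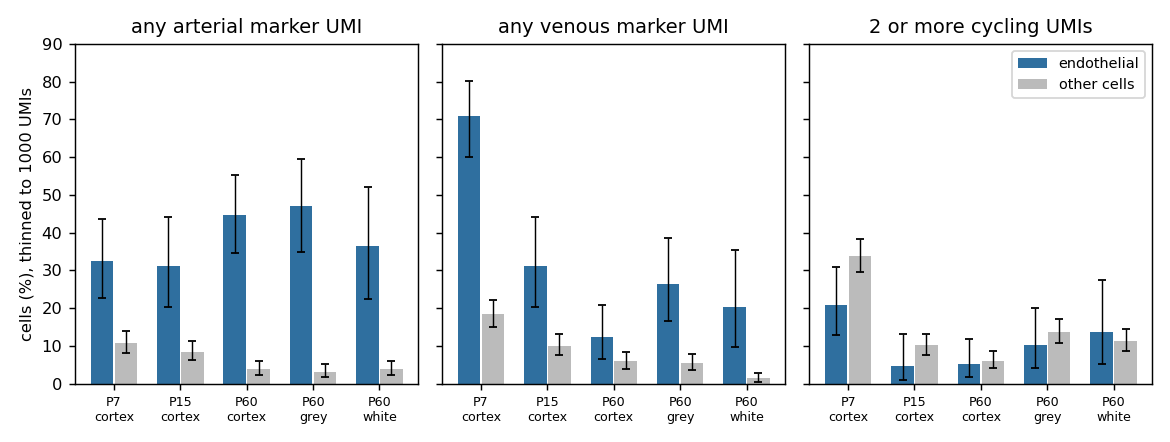
Bars show the percent of cells, thinned to 1000 UMIs, with at least 1 arterial UMI, at least 1 venous UMI or at least 2 UMIs of 48 cycling genes, for endothelial cells (blue) and other cells (grey) in 5 libraries, with exact binomial 95% intervals. Venous UMIs are most frequent at P7 (70.9%), and cycling calls in endothelial cells are below those of other cells at P7 (20.9% and 33.9%) and P15 (4.69% and 10.3%), with intervals that overlap in all 5 libraries.

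Genes of division were read from a broad list and from Mki67 and Top2a alone. Whether a call by the broad list marks a dividing cell was not tested. At least 2 UMIs of 48 cycling genes were found in 20.9, 4.69, 5.21, 10.3 and 13.6% of thinned members, and in 33.9, 10.3, 6.13, 13.7 and 11.3% of other cells. The early and adult shares overlapped (difference -3.10 percentage points, two-sided exact permutation p = 0.8), and without thinning the shares in members were 91.9, 75.0, 23.2, 52.2 and 35.6%. The share of members with a cycling call was higher in the adult without P7 cortex (by 5.03 points) and with stricter membership (by 2.82 points). At full depth, 2 or more UMIs of Mki67 and Top2a, genes of dividing cells, were found in 4 of 86 members at P7, in 1 of 64 at P15 and in none of the 213 adult members. The adult members were shallower, so a count of 0, which allows up to 1.41% of them to carry 2 such UMIs at this depth, sets no limit on the share that divides. Mki67 was at 13.1 and 9.41 CPM early and at 0 in the adult libraries, and Top2a was at 15.1, 18.8, 0, 0 and 14.5 CPM.

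Grey and white matter of P60 brains were compared without a test, since each is 1 library. Ratios carry exact 95% intervals that cover counting error only, and a gene was counted when its interval lay outside a 2-fold change. Of 2960 genes compared, 9 were higher in white matter (0.304%) and 44 were lower (1.49%), with a median ratio of 1.07. Of 235 genes from the lists none was higher and 16 were lower in white matter. Most of the 16 are genes of the dissociation response. Fosb was at 217 CPM in white and 1482 CPM in grey matter (ratio 0.146, 0.0972 to 0.213), Atf3 at 246 and 1491 CPM, Ier3 at 296 and 1459 CPM, and Hspa1a at 2248 and 5645 CPM. In P60 cortex, which includes both tissues, Fosb was at 8.09 CPM and Hspa1a at 469 CPM. These genes were high in the other cells of the grey matter library as well, with Fosb at 989 CPM and Hspa1a at 1895 CPM. Genes of vessel activation were among the 16 too. Vcam1, which leukocytes bind, was at 28.9 and 251 CPM (ratio 0.115, 0.0303 to 0.311) and at 12.1 CPM in P60 cortex, and Cxcl1, a neutrophil chemokine, at 21.7 and 153 CPM. Klf4 was at 904 and 3417 CPM and B2m at 1836 and 4756 CPM. In the other cells of white and grey matter Vcam1 was at 7.87 and 72.8 CPM, Cxcl1 at 1.33 and 64.3 CPM, Klf4 at 27.5 and 784 CPM and B2m at 503 and 3409 CPM. The microglial markers in members summed to 152 CPM in white and 907 CPM in grey matter. In this library the early response genes and the adhesion genes were high together, and dissection, dissociation and tissue cannot be told apart.

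Mural cells, the pericytes and smooth muscle cells that wrap the same vessels, allowed a test of whether a stage difference was larger in 1 of the 2 cell classes. They had at least 4 UMIs of Kcnj8, Abcc9 and Rgs5 and at most 2 of the 5 endothelial genes. The comparison used 4 libraries with at least 15 mural cells each (24 at P7, 17 at P15, 47 in P60 cortex and 68 in white matter), a minimum lowered from 20 after the numbers were seen. With the library as a block, edgeR's quasi-likelihood test called 48 of 4621 genes (1.04%), 22 with a more positive difference in endothelial cells and 26 with a more negative one, and 451 had an unadjusted p under 0.05. Tinagl1 went from 15.1 and 35.7 CPM to 320 and 361 CPM in endothelial cells and from 232 and 658 CPM to 419 and 403 CPM in mural cells. Its differences were 3.81 ± 0.477 apart (adjusted p = 6.26e-04, edgeR). Ifitm3 stood at 99.9, 378, 1695 and 1598 CPM in endothelial and at 1104, 630, 764 and 675 CPM in mural cells, 3.35 ± 0.625 apart (adjusted p = 0.00964). Bst2, a further gene of the interferon list, was 3.24 ± 0.611 apart. In both genes the endothelial adult values were the highest of their class and the mural adult values were not. Nid1 was at 183, 156, 8.09 and 14.5 CPM in endothelial and at 251, 139, 130 and 185 CPM in mural cells, with a difference of -3.58 ± 0.701 (endothelial minus mural, adjusted p = 0.0112). Slc22a8, an organic anion carrier of the barrier, was at 833, 606, 239 and 549 CPM in endothelial cells and at 9.86, 18.5, 130 and 207 CPM in mural cells (-4.61 ± 0.662, adjusted p = 0.00125). The mural sums of the early libraries came from few cells, so their levels are coarse.

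**Figure D5:**
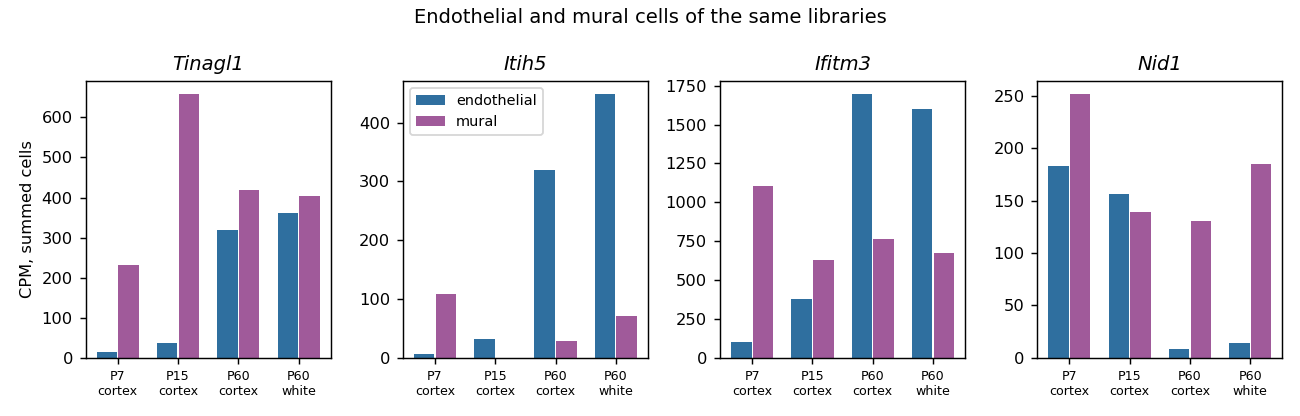
Bars give the CPM of Tinagl1, Itih5, Ifitm3 and Nid1 in summed endothelial cells (blue) and summed mural cells (purple) of 4 libraries, each panel with its own linear axis from 0. Nid1 is low in adult endothelial cells (8.09 and 14.5 CPM) and not in adult mural cells (130 and 185 CPM), and Ifitm3 is highest in adult endothelial cells.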

How the data were processed

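Cells of mouse brain were profiled by 10x 3′ single-cell RNA sequencing. Each deposited matrix gives UMI counts, not normalized, for genes by cell barcodes. Per the file headers the authors ran Cell Ranger 3.0.2, and the submitters' processing notes name the build mm10; the annotation release is not given in the sources used here. The 7 libraries held 31053 genes. Total UMIs per library ran from 10074763 to 45668007. UMIs of members were summed per library (libraries with under 20 members were counted only), filtered with filterByExpr, scaled with TMM and tested with edgeR 4.0.16 in R 4.3.3. Fits were tested on simulated data. DESeq2 1.42.0, other filters, memberships, equal depth and leaving out each library were tried. Scrublet (in scanpy 1.11.5, Python 3.11.15) marked 9 members as doublets, which were removed only as an alternative. Shares were tested by exact permutation. Detection used cells thinned to 1000 UMIs; intervals are exact 95% intervals, and intervals and floors of 3 counts cover counting error only. The members and gene lists were chosen with earlier results of these data known. Genes were named by a rule: the 15 largest rises and 15 largest falls among called genes with no overlap between stages, at least 50 CPM in the higher stage and at least 2 times the level of other cells, the 4 called genes of largest change per list, and a fixed set. Other genes of the lists are given as examples and were chosen after their values were seen. Gene positions come from the GENCODE annotation of that build, which matched 30934 genes. Nothing says that libraries came from separate animals. The values of some genes are not reported here.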

Additional observations from a re-analysis of the deposited data

Results flagged for a closer look

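The stage difference of 48 genes differed between endothelial and mural cells by the interaction test (edgeR, adjusted p under 0.05). Of 290 genes called by stage in endothelial cells and tested there, 33 were among them. Among the genes named for stage, Tinagl1 (3.81) and Itih5 (4.83) had a more positive log2 difference in endothelial than in mural cells. Nid1 (-3.58), Bgn (-8.09) and Meox1 (-9.64) had a more negative one. The values of Bgn and Meox1 rest on sums with 0 UMIs and depend on the prior count of the fit. The part of the small early mural sums in these differences was not tested.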

How the results depend on the processing

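All 59 named genes that were called kept their direction in every alternative in which they were tested, and 23 of them were called in each. In sums thinned to equal depth, the calls of Slc7a5, Irf1, Bmx, Tcf15, Tek, Cd93, Acvrl1, Bambi, Adamtsl2 and Cav2 ended. With stricter membership, those of Acer2, Acvrl1, Bambi, Cav2, Cd93, Klf4 and Tek ended. Against 155 genes higher and 158 lower, the counts were 369 and 407 without a filter on low counts, 103 and 79 in sums thinned to equal depth, 104 and 100 with stricter membership, and 235 and 163 among genes at least 2 times above other cells, a filter that uses the same values. DESeq2 gave 209 and 139. Leaving out 1 library gave between 48 and 262 genes higher and between 24 and 215 lower. The test against mural cells called 94 genes without a filter, in place of 48; leaving out libraries was not run there, since 2 per stage would not remain, and the planned minimum of 20 mural cells left 1 early library. The share of members with a cycling call differed by 2.82 percentage points with stricter membership, the opposite of the main direction, and by -11.2 to 5.03 points with 1 library left out, and the share of members with an arterial UMI by -21.4 points without thinning. The comparison of P7 SVZ with P7 cortex was not run, with 8 members in the SVZ. Endothelial shares kept their direction in all alternatives. No paired analysis was possible because each stage and region is 1 library and the labels give no replicate numbers. The self-test recovered 2%, 82% and 97.5% of genes changed 2-fold, 4-fold and 8-fold, so small differences are largely out of reach of this comparison. At 2-fold, 20% of the genes called were not among the changed ones. Depth was not varied in the self-test.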

Other observations

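Several genes of vessel inflammation and of growth were near the limit of detection in some or all of the 5 libraries. The selectin genes Sele and Selp, which slow leukocytes on activated venules, were at 0 CPM in all 5 libraries for Sele and at 1.01 CPM at P7 and 0 elsewhere for Selp. Ackr1, a chemokine-binding protein of venules, was at 2.02, 1.88, 0, 4.49 and 0 CPM. The fetal growth gene Igf2 was at 0 in the 5 libraries. The chemokine receptor gene Cxcr4, a tip cell gene, was at 159, 15, 4.05, 0 and 7.23 CPM. It did not pass the filter on counts and was not tested. Bmp4, a growth factor, was at 13.1 and 67.7 CPM in the early libraries and at 0 in the adult ones, and was not tested either.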
